A study of Sus scrofa with 24 samples.

Results

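Pieces of porcine aortic valve leaflet kept static with serotonin (5HT) plus fluoxetine (Fluox) were compared with static pieces kept without agents. The comparison used 12 of the 24 arrays of the study, chosen by their labels alone, with 6 arrays in each group and 23999 probe sets other than controls. The groups left out here had the same agents or none but were cyclically stretched. No probe set passed the test over all probe sets, and the values below give which genes and gene groups lay nearest to it, and what size of change 6 against 6 arrays could not have resolved.

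Serotonin acts on cells through receptors such as HTR2B, which couples to Gq proteins and is linked to fibrosis of heart valves, and it is taken up by the transporter SLC6A4 and broken down by the monoamine oxidase MAOA. Fluoxetine is a selective inhibitor of serotonin reuptake that blocks SLC6A4. Leaflets consist mostly of interstitial fibroblasts in a matrix of collagen, elastic fibres and proteoglycans, covered by endothelium, with some resident macrophages.

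The valves came from an abattoir, from domestic pigs aged 12 to 24 months, and a piece of 15 by 10 mm was cut from the centre of each cusp. All 12 pieces were kept for 24 h at 37 C in DMEM with 10% fetal bovine serum, and neither group was pulled. The group with 5HT plus Fluox received both agents together, at doses not stated in the labels, so the effect of either agent alone cannot be told apart from that of the other. From each piece 6 ug of RNA was put on its own Affymetrix porcine array. The pieces of each valve were assigned to groups at random, so 1 animal may stand behind several arrays, and the sharing is not stated in the labels. The p-values therefore measure the spread between these pieces. Values are log2 GCRMA units, in which a difference of 1 is 2-fold, and readings near 2 are the bottom of the scale. In whole tissue, fewer cells of a type and less RNA per cell cannot be told apart.

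The arrays read as valve interstitial tissue. Mean values without agents were 12.26 for the proteoglycan decorin (DCN), 12.21 for vimentin (VIM) and 12.54 for periostin (POSTN), and the endothelial genes PECAM1 and CDH5 had means of 7.82 and 7.62. Of 19 cardiac muscle markers 16 had means under 4. The probe sets of COL1A2, a fibrillar collagen chain that this tissue is known for, read 1.99 and 2.65 and so gave no usable level of it, and no probe set was annotated to COL1A1.

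Static arrays 1 and 2, both without agents, stood apart from the other 10. They correlated with each other at 0.992 and with static arrays 3 to 6 at 0.954 to 0.975, whereas arrays 3 to 6 correlated among themselves at 0.982 to 0.991 and the arrays with agents at 0.974 to 0.996. The first principal axis, which separated these 2 arrays, held 52.3% of the variance over the 12 arrays. It also followed the replicate numbers. Arrays 1 to 3 lay at 0.024 to 100.4 without and -9.11 to 26.7 with agents, above arrays 4 to 6 of the same group at -32.2 to -9.39 and -57.9 to -29.6. The difference between the groups held 10.2%, against the 9.09% that any 1 of the 11 degrees of freedom holds on average. Values are therefore given with all 12 arrays and, where a call, a direction or a size turned on it, without static arrays 1 and 2 and without arrays 1 and 2 of both groups. The first of these takes arrays of low number from 1 group alone. The difference between the 3′ and 5′ ends of GAPDH and EF1A control transcripts, a measure of RNA quality, was 0.77 ± 0.14 log2 (SD, n = 6) without and 0.82 ± 0.11 (SD, n = 6) with agents (exact permutation test, two-sided, p = 0.515, adjusted p = 0.768 over 5 array measures). None of the other 4 measures differed by this test either, and their adjusted p was 0.768 throughout.

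**Figure D1:**
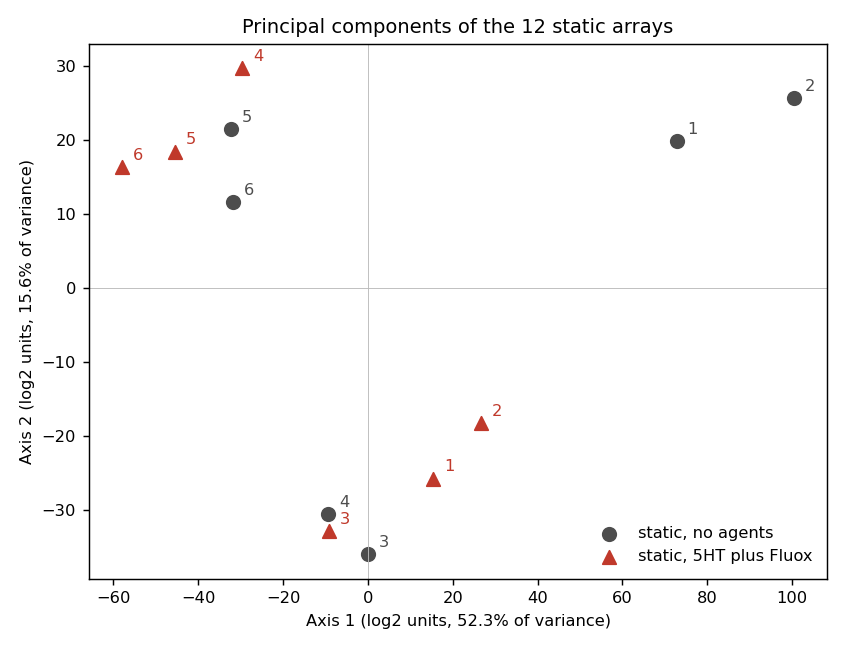
Each point is 1 of the 12 static arrays on the first and the second principal axis of all 23999 probe sets, in log2 units, and the number beside it is the replicate number. Static arrays 1 and 2 without agents lie far to the right on axis 1, while the remaining arrays of both groups lie among each other.

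With limma's moderated test and Benjamini-Hochberg adjustment, 0 of 23999 probe sets (0.0%) were called at an adjusted p under 0.05. The smallest adjusted p was 0.754, and all genes named below with an unadjusted p under 0.05 share it, while the adjusted p of the others was as large or larger. At an unadjusted p under 0.05 there were 653 probe sets (2.72%), 313 higher (1.3%) and 340 lower with the agents (1.42%). Where no probe set changes, a share of about 0.05 is expected at that p on average, and 2.72% lies below it. Among the 11879 probe sets whose higher group mean reached 5, 121 were higher and 203 lower at that p. The median log2 change was 0.02 over all probe sets and -0.01 over the brighter ones. In 29 probe sets (0.121%) the 6 arrays with agents did not overlap the 6 without, 23 of them higher (0.0958%) and 6 lower (0.025%). Of these 29, 21 had means under 4, near the bottom of the scale, and 19 of those 21 were higher with the agents.

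The smallest p belonged to CDK16, a cyclin-dependent kinase of the PCTAIRE family. Its probe set read 3.73, 4.01 and 4.29 (lowest, median, highest) without agents and 3.26, 3.38 and 3.69 with them. Every array with agents lay below every array without. Its group means were 4.02 without and 3.41 with agents, so it is 1 of the 21 non-overlapping probe sets with means under 4, near the bottom of the scale. The log2 change was -0.61 (SE 0.10, 95% interval -0.83 to -0.39, limma, unadjusted p = 7.65e-05), and it was -0.53 without static arrays 1 and 2. When all 24 arrays shared 1 estimate of the spread, CDK16 was the only probe set called (1 of 23999, 0.00417%, with 1.76% at an unadjusted p under 0.05), with an SE of 0.08 and an adjusted p of 0.00502. In the authors' deposited table, too, it is the only probe set with an adjusted p under 0.05 for this comparison, with a signed fold change of -1.53 and an adjusted p of 0.00354. The stretched arrays that enter those fits read this probe set at 3.05 to 3.25, with an SD of 0.08 without and 0.05 with agents, against 0.20 and 0.15 in the static groups. A second, brighter CDK16 probe set had a log2 change of -0.28 (SE 0.13, limma, unadjusted p = 0.0467) and the last one of -0.24 (SE 0.19, limma, unadjusted p = 0.246).

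The 12 named genes of smallest p that read lower with the agents are described singly, since none passed the adjusted test and no group of genes among them was tested. NFKBIB, an inhibitor that holds NF-kappaB in the cytoplasm, read 9.40, 9.65 and 9.68 without and 9.08, 9.26 and 9.44 with agents. The groups overlapped only through static array 4, and 4 of the 6 arrays with agents lay below all arrays without. The log2 change was -0.35 (SE 0.07, limma, unadjusted p = 0.000479). TNIP1, which binds the ubiquitin-editing enzyme A20 and restrains NF-kappaB, read 5.51, 5.82 and 7.12 without and 4.05, 4.54 and 6.04 with agents, and 5 arrays with agents lay below all without. Its log2 change was -1.28 (SE 0.38, limma, unadjusted p = 0.00661), whereas a brighter TNIP1 probe set differed by -0.56 (SE 0.26), and the last one read at the bottom of the scale. NFKBIL1, named after its values were seen, read 4.41 to 5.17 without and 3.86 to 4.15 with agents with no overlap (log2 change -0.68, SE 0.12, limma, unadjusted p = 0.000166). The NF-kappaB inhibitor gene NFKBIA differed by -0.16 (SE 0.21) and the subunit gene NFKB1, at the bottom of the scale, by 0.03 (SE 0.08). Without static arrays 1 and 2 these values were -0.35 and -0.04, and without arrays 1 and 2 of both groups -0.40 and -0.01.

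CD82, a tetraspanin of the plasma membrane, read 6.84, 7.88 and 8.52 without and 6.09, 6.31 and 7.13 with agents. Only 1 array with agents reached into the range of the other group. The log2 change was -1.29 (SE 0.32, limma, unadjusted p = 0.00183), -1.61 (SE 0.36) in its dimmer probe set, and -0.96 in the brighter one without static arrays 1 and 2. ZDHHC18, an enzyme that attaches palmitate to proteins, had a log2 change of -1.12 (SE 0.27, limma, unadjusted p = 0.00164), and 3 arrays with agents lay below all without. ORMDL3, a brake on the first enzyme of sphingolipid synthesis, had a median of 7.42 and a lowest value of 7.29 without agents, against 7.17 and a highest value of 7.28 with them, so that there was no overlap, at a log2 change of -0.29 (SE 0.07, limma, unadjusted p = 0.00243). RNF5, a ubiquitin ligase of the endoplasmic reticulum, differed by -0.38 (SE 0.12), the transmembrane protein gene ITM2C by -0.27 (SE 0.07), the polycomb-associated PHF1 by -0.28 (SE 0.07) and the membrane-curving adaptor TRIP10 by -0.47 (SE 0.13).

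IGFBP5, which binds insulin-like growth factors in the matrix, read 7.28, 8.59 and 9.55 without and 6.36, 7.10 and 7.96 with agents, and the groups overlapped in part. Its log2 change was -1.30 (SE 0.39, limma, unadjusted p = 0.00678) and was -1.38 without static arrays 1 and 2. TGFB1, the growth factor that drives matrix production in fibroblasts, differed by -0.27 (SE 0.08, limma, unadjusted p = 0.00673) in 1 probe set, where 4 arrays with agents lay below all without, and by -0.07 (SE 0.14) in the other. TGFB2 and INHBA, related growth factor genes of the lists, differed by 0.34 (SE 0.43) and 0.26 (SE 0.29). Without static arrays 1 and 2 they differed by -0.03 and 0.25, and without arrays 1 and 2 of both groups by 0.44 and 0.47. FOSL1, a subunit of the AP-1 transcription factor, differed by -0.77 (SE 0.21), -0.48 (SE 0.20) and -0.14 (SE 0.18) in its 3 probe sets, the smallest difference being in the brightest.

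**Figure D2:**
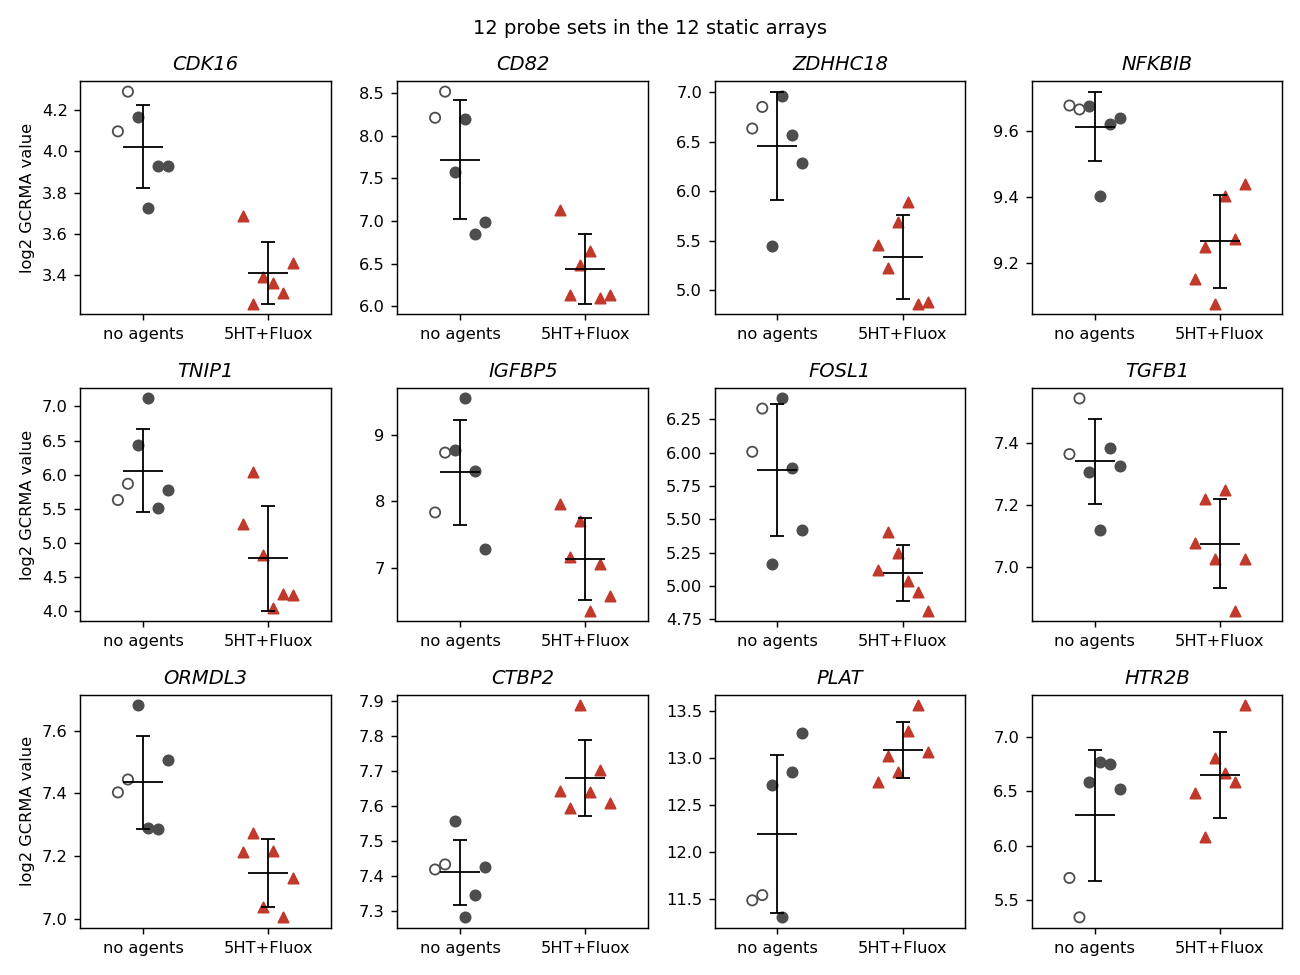
Log2 GCRMA values of 12 probe sets, 1 panel each, in the 6 static arrays without agents (circles, arrays 1 and 2 open) and the 6 with 5HT plus Fluox (triangles), with the mean and SD as a horizontal tick and bars and a separate vertical scale in each panel. CDK16, ORMDL3 and CTBP2 have no overlap between groups, the open circles are low in PLAT and HTR2B and high in CD82, and none of the 12 passed the adjusted test.

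The 12 named genes that read higher with the agents mostly differed by less than 1.5-fold. CTBP2, a corepressor of transcription, read 7.28, 7.42 and 7.56 without and 7.59, 7.64 and 7.89 with agents, with no overlap. The log2 change was 0.27 (SE 0.06, limma, unadjusted p = 0.000816), whereas its brighter probe set differed by 0.08 (SE 0.09). PLAT, the tissue plasminogen activator, had the largest change of these 12, reading 11.30, 12.12 and 13.27 without and 12.75, 13.04 and 13.57 with agents. Only 2 arrays with agents lay above all without, since static arrays 1, 2 and 4 read 11.48, 11.54 and 11.30 and the other 3 lay within the range with agents or close to it. The log2 change was 0.90 (SE 0.35, limma, unadjusted p = 0.0263) and 0.56 without static arrays 1 and 2. SULF2, which trims sulfates from heparan sulfate chains outside the cell, differed by 0.30 (SE 0.10), and the ubiquitin ligase genes FBXW7 and RNF103 by 0.21 (SE 0.07) and 0.20 (SE 0.07). The remaining named genes were the histone methyltransferase KMT5B with 0.17, the zinc finger gene ZC3H7A with 0.28, ACOX2 of peroxisomal fatty acid and bile acid oxidation with 0.32, the mitochondrial ribosome gene DAP3 with 0.14, the peptidase gene NLN with 0.14, C4H8orf76 with 0.58 and LOC100520426 with 0.66.

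Genes that serotonin and fluoxetine act on showed no difference past the test. HTR2B read 5.34, 6.55 and 6.77 without and 6.08, 6.62 and 7.29 with agents, and the medians nearly coincided. The log2 change of 0.37 (SE 0.28, 95% interval -0.25 to 0.99) was -0.01 without static arrays 1 and 2, which read 5.70 and 5.34, 0.18 without arrays 1 and 2 of both groups, and 0.18 to 0.49 on leaving out any 1 array. HTR2A, the other Gq-coupled receptor of that subfamily on the array, differed by 0.23 (SE 0.22) at a mean near 4. MAOA read 6.68, 7.91 and 8.75 without and 7.71, 7.91 and 8.06 with agents, a log2 change of 0.02 with a 95% interval of -0.67 to 0.71, and of 0.42 without static arrays 1 and 2. The transporter SLC6A4, which fluoxetine blocks, read 2.65 to 3.03 without and 2.59 to 3.00 with agents, at the bottom of the scale, as did the receptors HTR1B, HTR1D, HTR4 and HTR7, whose means lay between 2.14 and 2.56. Of the 13 measured serotonin genes 8 were higher and 5 lower, with a median of 0.02, and 0 had an unadjusted p under 0.05. Over all probe sets 58.9% were higher and 2.72% had such a p, so these counts lie near those shares. Of the 13 genes 7 had means under 4. Among 16 genes of Gq, calcium and RGS signalling the median was 0.08, and ITPR3, a calcium channel of internal stores, differed by -0.63 (SE 0.28, limma, unadjusted p = 0.0465) and by -0.39 without static arrays 1 and 2. Of 13 genes of cyclic AMP signalling 11 were higher, with a median of 0.12 that was 0.03 without static arrays 1 and 2.

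Over 37 gene lists with at least 5 measured members, 780 different genes were measured. Of these 304 were higher and 476 lower, 3 higher (0.38%) and 17 lower (2.18%) at an unadjusted p under 0.05, against 1.3% and 1.42% of all probe sets. Called were 0 (0.0% of all probe sets), and in 0 did the groups fail to overlap, against 0.121% of all probe sets. List medians ran from -0.47 to 0.14, with 22 below 0 and 15 above, while 41.1% of all probe sets and 52.2% of the brighter ones lay below 0 and 58.9% of all above. The lists hold mostly brighter probe sets, so the shares over all probe sets are not those of a like set. Of the 11879 brighter probe sets 121 were higher and 203 lower at an unadjusted p under 0.05 (limma). Of the 29 probe sets without overlap 21 had means under 4. Without static arrays 1 and 2 the list medians were below 0 in 12 lists and above in 25, and 5 rather than 13 lay beyond 0.1 in either direction. The mean over the members of each list overlapped between the groups in all 37 lists.

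**Figure D3:**
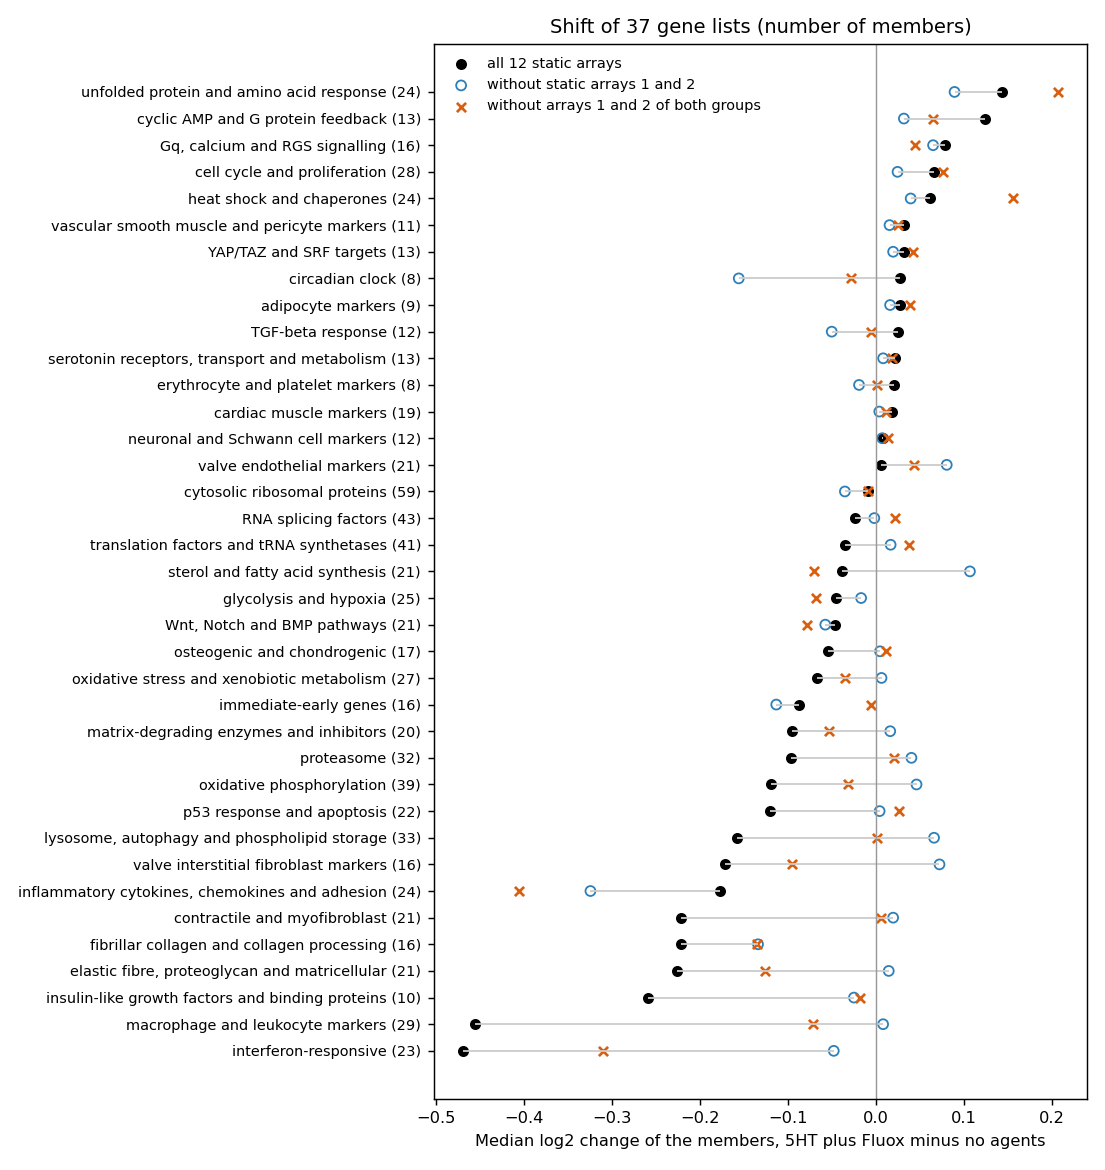
The median log2 change of the members (5HT plus Fluox minus no agents) of 37 gene lists, with the number of measured members in brackets, from all 12 static arrays (filled), without static arrays 1 and 2 (open) and without arrays 1 and 2 of both groups (crosses). The interferon and macrophage lists move from -0.47 and -0.46 to -0.05 and 0.01 when static arrays 1 and 2 are left out, while inflammatory genes stay below 0 and unfolded protein response genes above it in all 3.

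The lowest list medians were those of interferon-responsive and macrophage genes, and they depended on which arrays were left out. Of 23 interferon-responsive genes 22 were lower with the agents, with a median of -0.47, and 0 had an unadjusted p under 0.05. The antiviral effector genes MX1 and ISG15 differed by -0.52 (SE 0.55) and -0.48 (SE 0.38). Without static arrays 1 and 2 those values were 0.08 and -0.05, 9 genes were higher and 14 lower, and the list median was -0.05. Without arrays 1 and 2 of both groups, however, 22 of 23 were again lower, with a median of -0.31 and with -0.30 for MX1 and -0.31 for ISG15. Leaving out any 1 array gave medians of -0.70 to -0.24. The mean of the list was 9.88 and 10.69 in static arrays 1 and 2, 8.59 to 9.96 in arrays 3 to 6 and 8.37 to 10.31 with agents, so that both groups spanned about the same range.

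Macrophage and leukocyte markers had a median of -0.46, with 23 of 29 lower and 16 of the 16 brighter ones lower. A marker counted as brighter by its higher group mean, so it could enter through 1 group alone. CD163, a scavenger receptor of macrophages, differed by -0.93 (SE 0.95), the complement gene C1QA by -0.62 (SE 0.42) and the mannose receptor MRC1 by -0.57 (SE 0.50). Without static arrays 1 and 2 the values were 0.17, -0.08 and 0.14, and the list median was 0.01. Without arrays 1 and 2 of both groups they were -0.56, -0.26 and -0.05, with a list median of -0.07 and 20 of 29 lower. Leaving out any 1 array gave medians of -0.57 to -0.15. The list mean was 5.89 and 6.18 in static arrays 1 and 2, 4.62 to 5.25 in arrays 3 to 6 and 4.58 to 5.27 with agents. Markers of T and B lymphocytes in the list (CD3D, CD3E, CD4, CD8A, CD79B) had means from 1.84 to 2.65, at the bottom of the scale. The immunoglobulin heavy chain gene LOC396781 and the antibody-joining gene JCHAIN, outside the list, had means of 8.64 and 8.98 without agents.

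Genes of inflammatory cytokines, chemokines and adhesion were lower in 18 of 24 cases, with a median of -0.18. Unlike the lists above, the median was further from 0 without static arrays 1 and 2, at -0.32 with 23 of 24 lower, and it was -0.41 without arrays 1 and 2 of both groups. Leaving out any 1 array gave -0.29 to -0.04, the last without static array 4. CSF3, the granulocyte colony-stimulating factor, read 4.91, 5.76 and 6.92 without and 3.40, 5.09 and 5.66 with agents, a log2 change of -1.16 (SE 0.45, limma, unadjusted p = 0.0256). The chemokine CCL5 read 8.63, 9.63 and 10.18 without and 8.44, 8.97 and 9.29 with agents, a log2 change of -0.61 (SE 0.24, limma, unadjusted p = 0.0273). In both genes the lower arrays without agents lay within the range with agents. CCL2, the main chemokine for monocytes, differed by -0.33 (SE 0.20), and the endothelial adhesion gene SELE by -0.92 (SE 0.78). The list mean was 9.44 to 10.39 without and 9.09 to 9.96 with agents.

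**Figure D4:**
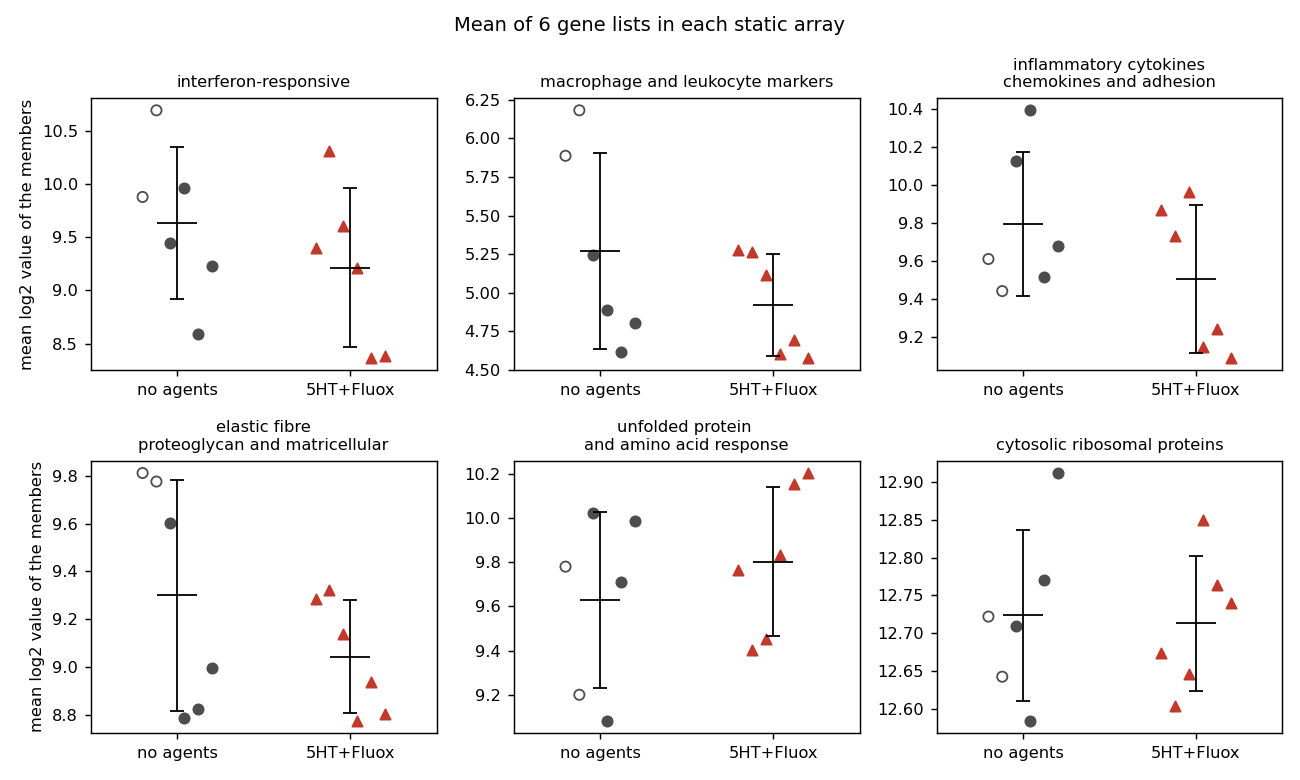
The mean log2 value over the members of 6 gene lists in each static array without agents (circles, arrays 1 and 2 open) and with 5HT plus Fluox (triangles), with the mean and SD of each group and a separate vertical scale in each panel. Static arrays 1 and 2 have the highest macrophage means, 5.89 and 6.18, and in all 6 panels the groups overlap.

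Matrix and fibroblast genes were lower on balance, and the size of these shifts depended on which arrays were left out. Of 21 genes for elastic fibres, proteoglycans and matricellular proteins 17 were lower, with a median of -0.23. The median was 0.01 without static arrays 1 and 2, and -0.13 with 12 of 21 lower without arrays 1 and 2 of both groups. Biglycan (BGN), a small proteoglycan, read 9.62, 9.84 and 10.59 without and 9.35, 9.56 and 9.75 with agents, and 4 arrays with agents lay below all without. Its log2 change was -0.45 (SE 0.18, limma, unadjusted p = 0.0306) and -0.18 without static arrays 1 and 2. Of 16 fibrillar collagen and collagen processing genes 12 were lower, with a median of -0.22 that was -0.13 under either omission. COL3A1 differed by -0.35 (SE 0.51) and LOXL1, which cross-links elastin, by -0.76 (SE 0.40) and by -0.36 without static arrays 1 and 2. Interstitial fibroblast markers had a median of -0.17 with 14 of 16 lower. It was 0.07 without static arrays 1 and 2, and -0.09 with 11 of 16 lower without arrays 1 and 2 of both groups. TCF21, a transcription factor of fibroblast precursors, read 4.67, 5.97 and 6.41 without and 4.21, 4.91 and 5.44 with agents, a log2 change of -0.97 (SE 0.32, limma, unadjusted p = 0.0109) and of -0.81 without those arrays.

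Of 21 contractile and myofibroblast genes 16 were lower, with a median of -0.22, of 0.02 without static arrays 1 and 2 and of 0.01 without arrays 1 and 2 of both groups. ACTA2, the smooth muscle actin that marks activated valve interstitial cells, read 4.50, 6.53 and 9.42 without and 5.39, 6.43 and 7.05 with agents. Its spread was the wider one without agents, and its log2 change of -0.36 (SE 0.79) had a 95% interval of -2.09 to 1.38, which spans more than 2-fold both ways. PDLIM7, a scaffold of actin fibres, differed by -0.26 (SE 0.11, limma, unadjusted p = 0.0448) and by -0.12 without those arrays. Insulin-like growth factor genes had a median of -0.26 over 10 members, which was -0.02 without static arrays 1 and 2 and also without arrays 1 and 2 of both groups. The 5 members whose higher group mean reached 5 had a median of -0.89 over the 12 arrays, which was not computed without static arrays 1 and 2. IGF1 entered these 5 through the group without agents alone, with means of 5.94 without and 4.89 with agents. IGF2, the fetal growth factor, read 7.23, 7.31 and 8.16 without and 6.62, 7.06 and 7.47 with agents, and 5 arrays with agents lay below all without (log2 change -0.51, SE 0.20, limma, unadjusted p = 0.0281, and -0.27 without static arrays 1 and 2). IGF1 differed by -1.05 (SE 0.70) and by -0.03 without static arrays 1 and 2.

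The list with the highest median was that of the unfolded protein and amino acid response. Of its 24 members 22 were higher with the agents, with a median of 0.14 (1.11-fold), of 0.09 without static arrays 1 and 2 and of 0.21 without arrays 1 and 2 of both groups, and in both of these 22 of 24 were again higher. Leaving out any 1 array gave medians of 0.04 to 0.24, the lowest without static array 4. ASNS, the asparagine synthetase, read 9.27, 9.66 and 9.91 without and 9.64, 10.09 and 10.40 with agents, with 4 arrays above all without, a log2 change of 0.40 (SE 0.16, limma, unadjusted p = 0.0344). The chaperone gene HSPA5 differed by 0.44 (SE 0.43) and its cofactor DNAJB9 by 0.50 (SE 0.39), values that were 0.16 and 0.08 without static arrays 1 and 2, and PSAT1 of serine synthesis by 0.53 (SE 0.28), while PPP1R15A, which restores translation after stress, differed by -0.45 (SE 0.26). The list mean was 9.08 to 10.02 without and 9.40 to 10.20 with agents, so that the groups overlapped over most of their range. The 1.11-fold median lies below what single genes could show, since the median half-width of the 95% interval of its members was 0.55 log2.

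Fluoxetine is a cationic amphiphilic drug, a class known to collect in lysosomes. Of 33 lysosome, autophagy and phospholipid storage genes 27 were lower, with a median of -0.16 that was 0.07, with 23 higher, without static arrays 1 and 2 and 0.0016 without arrays 1 and 2 of both groups. LAMP2, a protein of the lysosomal membrane, read 11.36, 11.48 and 11.62 without and 11.51, 11.64 and 11.70 with agents (log2 change 0.14, SE 0.05, limma, unadjusted p = 0.0284, and 0.09 without those arrays). Sterol and fatty acid synthesis genes had a median of -0.04, against 0.11 without static arrays 1 and 2 and -0.07 without arrays 1 and 2 of both groups. Of 39 oxidative phosphorylation genes 34 were lower with a median of -0.12, which was 0.05 without static arrays 1 and 2 and -0.03 without arrays 1 and 2 of both groups. PFKL, the liver form of phosphofructokinase, read 5.23, 5.59 and 6.61 without and 4.47, 4.75 and 5.82 with agents (log2 change -0.95, SE 0.31, limma, unadjusted p = 0.0113, and -0.56 without those arrays), within a glycolysis list whose median was -0.05. Ribosomal protein genes had a median of -0.01 over 59 members and 95% intervals within 2-fold both ways for 58 of them.

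Valve endothelial markers had a median of 0.01, with 12 of 21 higher, among them CDH5 with 0.58 (SE 0.43) and PECAM1 with 0.48 (SE 0.44). Among the 9 lower ones were SELE with -0.92 (SE 0.78) and CD34 with -0.28 (SE 0.13, limma, unadjusted p = 0.0493), the only member under 0.05. Cardiac muscle, erythrocyte and adipocyte markers had medians of 0.02, 0.02 and 0.03 at levels mostly near the bottom of the scale, and vascular smooth muscle and pericyte markers one of 0.03. Of the genes of mast cells, which store serotonin in some species, 3 were measured, of which KIT differed by -0.11 (SE 0.25) at the bottom of the scale, GATA2 by -0.08 (SE 0.19) and the IgE receptor gene MS4A2 by 0.80 (SE 0.55). The last was 0.11 without static arrays 1 and 2.

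How large a change could have been missed was computed from the moderated spread of the 12 arrays. The median half-width of the 95% interval of a log2 change was 0.35 over all probe sets and 0.44, or 1.36-fold, over the 11879 brighter ones. A probe set that changed alone among 23999 needs an unadjusted p of 2.08e-06 to be called, which at the median spread of brighter probe sets takes an observed log2 change of 1.81 (3.51-fold). To be found in 80% of such experiments, a true change would have to be 2.13 log2 (4.38-fold). If many genes changed together the adjusted threshold would be less strict, and the lower limit for a single gene looked at alone, at an unadjusted p of 0.05, is 0.62 log2 (1.54-fold) for 80% power. A true 2-fold change would have been found with 80% power in 6.93% of the brighter probe sets as a lone call and in 80.5% at an unadjusted p of 0.05.

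The observed intervals bound the changes more closely than the calls do. For 9453 of the 11879 brighter probe sets (79.6%) the 95% interval, not adjusted for the number of probe sets, lay within 2-fold both ways. Above a mean of 4, precision increased with the level, and the change needed by a lone call was 2.43 log2 at means of 4 to 6, 1.58 at 8 to 10 and 0.87 at 12 and over. Under 4 it was 0.38, where values at the bottom of the scale hardly vary and a small log2 difference says little of the RNA level. Gene groups differed in precision too. Intervals lay within 2-fold for 30 of 32 proteasome genes and 23 of 25 glycolysis genes, but for 5 of 23 interferon-responsive, 13 of 29 macrophage and 12 of 21 elastic fibre genes. In those 3 groups the intervals reached beyond 2-fold mostly on the lower side, and their upper ends stayed under a 2-fold increase in 20 of 23, 26 of 29 and 19 of 21 genes.

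**Figure D5:**
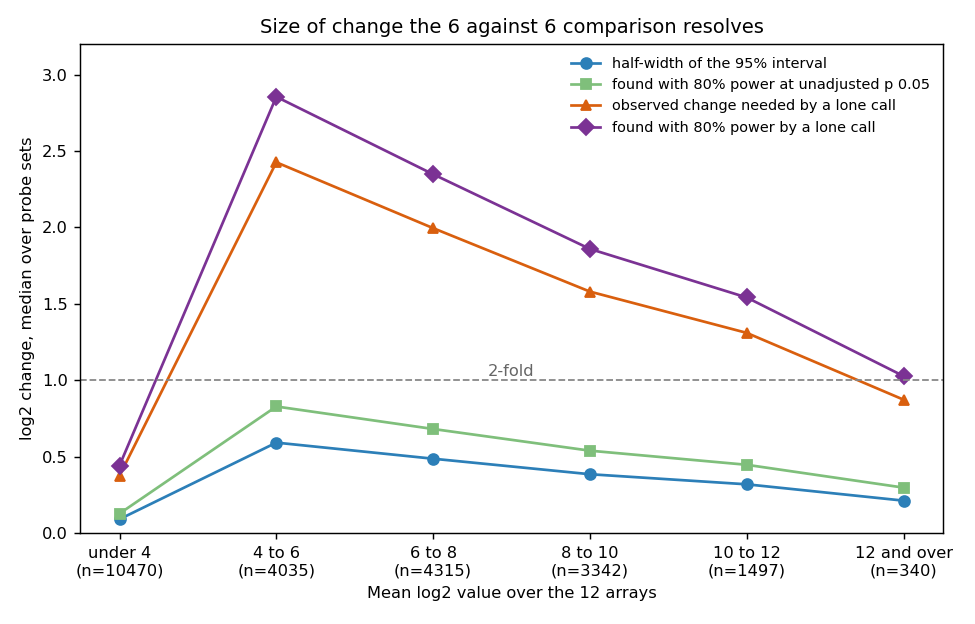
The log2 change that 6 against 6 arrays resolve, as the median over probe sets in bins of mean log2 value with the number of probe sets in each bin, for 4 measures named in the legend, and a dashed line at 2-fold. The change found with 80% power as a lone call lies above 2-fold in every bin but the dimmest.

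Whether the agents acted differently in static and in stretched tissue was tested on all 24 arrays. The interaction was called in 0 of 23999 probe sets (0.0%), with 1791 (7.46%) at an unadjusted p under 0.05, of which 1155 (4.81%) were higher and 636 (2.65%) lower. With array weights 2174 were called, and the cause of that was not tested. By the naming rule the nearest genes were DCAF13, CD82, SRSF6 and INPPL1, none of which passed. CD82 differed by -1.29 (SE 0.32) with agents in static and by 0.96 (SE 0.41) in stretched tissue, an interaction of 2.25 (SE 0.53, limma, adjusted p = 0.540). DCAF13, which takes part in ribosome assembly, differed by -0.07 (SE 0.17) in static and by -1.45 (SE 0.25) in stretched tissue (limma, adjusted p = 0.540). The splicing factor gene SRSF6 differed by -0.68 and 1.32, and INPPL1, a phosphatase of inositol lipids, by -0.44 and 0.86, in static and then in stretched tissue. The GAPDH and EF1A measure of RNA quality was 0.57 to 0.97 over the static arrays and 0.98 to 4.66 over the stretched ones, and with it as a covariate the interaction was again called in 0 probe sets.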

How the data were processed

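The authors deposited log2 values, 1 per probe set and array, made with GCRMA and Partek per the submitters' processing notes, with versions not given in the sources used here. The authors' deposited table holds p-values, adjusted p-values (Benjamini-Hochberg) and fold changes with a sign, from a two-way ANOVA in Partek GS, per the readme deposited with it. Its log2 fold changes for this comparison equalled those computed here to within 5.79e-05.

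Of 24123 probe sets 124 controls were left out. Platform annotation gave 1 symbol for 10069 probe sets, several for 198 and none for 13732, and 9961 of the 10069 matched a RefSeq gene ID. The groups were fitted on 12 arrays with limma 3.58.1 (R 4.3.3; lmFit, eBayes defaults), two-sided, adjusted over 23999 probe sets, and the interaction on 24 arrays. The fit was tested on simulated data, with noise drawn independently for each probe set and array. It called 18 of 50 probe sets shifted by 0.5 log2, 32 of 50 by 1, 43 of 50 by 2, 50 of 50 by 4, and 9 of 23799 unshifted ones. The 200 shifted probe sets were drawn from all 23999, dim ones included, and were shifted together. These shares are therefore not those of a lone call or of the brighter probe sets. Independent noise holds no differences shared by many probe sets of an array, so the outcome says nothing of the fit under those. Detectable changes came from the moderated SE and the noncentral t distribution. Array measures were compared by exact permutation tests (scipy 1.17.1).

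The named genes were, per direction, the 12 with the largest called changes or else the smallest p among probe sets with 1 symbol and a log2 mean reaching 5 in either group, up to 4 members per list, fixed serotonin, collagen and TGFB1 genes, and 4 for the interaction. Genes of a list described beyond those 4 were picked after their values were seen, as examples, and so were NFKBIL1 and the genes in the closing section. Lists used the brightest probe set per symbol, and for a list no test was run. The members, lists and most alternatives were chosen with earlier results of these data known, and the 2 alternatives that leave out arrays 1 and 2 were added after the arrays had been seen. The number of arrays, 6 a group, limits the precision. No sequences are shown, since none was used here.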

Additional observations from a re-analysis of the deposited data

Results flagged for a closer look

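In 156 sets of 6 arrays (the array measures, named genes and list means of each static group), 8 held an array far from the other 5 by Dixon's criterion, and chance gives about 5% of such sets. With the agents, array 3 read highest for CTBP2 (7.89), array 2 for the mean of glycolysis and hypoxia genes (10.31) and array 6 for the mean of neuronal and Schwann cell markers (5.40). Without agents, array 2 read lowest for NLN (12.62) and for the mean of immediate-early genes (8.75), array 4 lowest for NFKBIB (9.40), array 6 lowest for HTR2A (3.24) and array 1 highest for SLC6A4 (3.03), the last at the bottom of the scale.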

How the results depend on the processing

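Under each alternative run on the 12 arrays, limma again called 0 probe sets, also on leaving out each array in turn (0 to 0), and the smallest adjusted p lay between 0.267 and 0.989. Only the fit of all 24 arrays called 1, CDK16, whose change lay between -0.67 and -0.53 in all 23 fits that held it. The count at an unadjusted p under 0.05 was 653. It was 422 with 24 arrays, 328 without dim probe sets, 1148 with no moderation, 1102 with trend and robust variances, 429 without static arrays 1 and 2, and 348 to 1369 on leaving out each array (348 without static array 1, 397 without static array 2, 1102 without static array 4, 1369 without static array 6, 402 and 387 without arrays 5 and 6 with agents). Under the replicate block this count was 2327, with 0 called. Same-numbered arrays correlated in their deviations at 0.33 to 0.59 in 5 of 6 pairs and at -0.11 for number 4. Of the 6 arrays without agents 3 correlated best with their own number, so the block is a hint from the data, not the design. The median half-width of 0.35 was 0.53 with 24 arrays, 0.31 with array weights, 0.46 without dim probe sets, 0.36 with no moderation, 0.30 with the replicate block, 0.33 without static arrays 1 and 2, 0.36 with trend and robust variances, and 0.34 to 0.37 on leaving out each array. Some genes changed sign. HTR2B was -0.0063 without static arrays 1 and 2. SLC6A4 was 0.016 with array weights, 0.11 without arrays 1 and 2 of both groups, 0.024 after centring on bright probe sets, 0.040 without static arrays 1 and 2, and -0.064 to 0.041 on leaving out each array. ACTA2 was 0.032, 0.055 and 0.15 with array weights, without arrays 1 and 2 of both groups and without static arrays 1 and 2, and -0.79 to 0.19 on leaving out each array. COL1A2 was -0.12, -0.15 and -0.17 under the same 3 settings and -0.086 to 0.16 on leaving out each array. MAOA ranged from -0.23 to 0.19 in this way. Of the array measures the 18S and 28S difference ranged from -0.039 to 0.20 and that of the bioB spike from -0.12 to 0.19. Of 925 list medians under an alternative 6 moved by more than 1 SD of the list mean between arrays. Among members whose higher group mean reached 5 these were serotonin genes at -0.15, insulin-like growth factor genes at -0.89 (also -0.89 without dim probe sets), cardiac markers at 0.16 and neuronal markers at -0.14, and adipocyte markers were 0.36 without dim probe sets. That SD is a wide measure. For interferon-responsive genes it was 0.72 without and 0.75 with agents, beside a median of -0.47. A median could reach 0 or change sign without counting as moved, so the count of 6 says little of how steady the medians were. The interaction count of 0 was 2174 with array weights and 0 to 2 on leaving out each array (2 without array 2 and 1 without array 5 of the stretched arrays with agents, 1 without array 4 or 5 of those without). The cause of these differences was not tested.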

Other observations

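Among bright probe sets with 1 symbol, the largest differences between the group means fell outside the lists and the naming rule. Others of at least 2-fold, such as IGFBP5, CD82 and CSF3, are described above. The lowest change of all, -3.22, lay in a bright probe set without exactly 1 symbol. The genes here were chosen after their values were seen. Of 29 bright probe sets with 1 symbol and a mean difference of at least 2-fold, 26 were lower and 3 higher with the agents (of all probe sets, 60 or 0.25% were lower and 24 or 0.1% higher by that size). Of the 11879 bright probe sets, with or without a symbol, 60 differed by that size in either direction. A probe set is bright by its higher group mean and could enter through 1 group alone. CD209 did so with means of 5.41 without and 4.12 with agents, and CYP3A46 with 4.40 and 6.78. Without static arrays 1 and 2 most of the 29 differed by less than 2-fold. CD209 was then -0.37 rather than -1.29, AMELX 0.32 rather than -1.01 and KCTD8 0.24 rather than 1.11, while TNIP1 was -1.43. PLTP was -1.25, -0.92 without those 2 arrays and -1.57 without arrays 1 and 2 of both groups, where CD209 was 0.04. The immunoglobulin heavy chain gene LOC396781 (IGHG in RefSeq) read 7.30, 8.44 and 11.22 without and 2.73, 5.35 and 9.61 with agents, a log2 change of -2.94 (SE 1.17, limma, unadjusted p = 0.0289). LOC100152327 read 7.11, 8.19 and 10.33 without and 3.13, 5.42 and 9.91 with agents, a change of -2.75 (SE 1.09). JCHAIN, which joins secreted antibody units, differed by -1.10 (SE 0.65). Among the arrays with agents, array 4 was the highest in all 3 genes and lay within or above the range without agents, and they differed by -3.24, -3.03 and -1.55 without static arrays 1 and 2.

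Cytochrome P450 genes, which oxidise drugs and steroids, moved in opposite directions. CYP3A46 read 2.57, 4.09 and 6.68 without and 5.20, 6.24 and 9.03 with agents, a log2 change of 2.38 (SE 0.97, limma, unadjusted p = 0.0329). CYP2B22 read 6.17, 6.72 and 9.11 without and 2.86, 5.05 and 6.81 with agents, a change of -2.18 (SE 0.77, limma, unadjusted p = 0.0159). CYP3A29 differed by 0.73. None passed the adjusted test (smallest adjusted p 0.754), and in each gene the groups overlapped. The chemokines CCL19 and CCL3L1 differed by -1.80 (SE 0.73) and -1.33 (SE 0.45). These values were -1.17 and -0.96 without static arrays 1 and 2, and -1.66 and -1.40 without arrays 1 and 2 of both groups.

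In both groups the arrays numbered 1 to 3 read the 18S and 28S ribosomal probe sets lower than those numbered 4 to 6, at 5.09 to 5.92 against 5.97 to 6.28 without agents and 5.47 to 5.65 against 6.07 to 6.49 with them. Whether the numbers mark a shared preparation was not given.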
